A study of Mus musculus with 2 samples.

Results

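The cells described here are classical monocytes, the Ly6c2-positive monocytes of the blood and of injured tissue, among CD45+ cells of the mouse heart. They were selected on their UMI counts (unique molecular identifiers, which tag single RNA molecules), and 1035 of 11078 kept cells met the rule, 43 in the control group and 992 in the ISO group. Kept cells had over 500 but fewer than 6000 genes, with mitochondrial UMIs below 25%. A member had at least 5 UMIs of Ly6c2 and Plac8 together and at least 10 UMIs of Lyz2. It had at most 3 UMIs of the complement genes C1qa, C1qb, and C1qc, which mark macrophages, and at most 2 UMIs of Treml4, Ace, Cd300e, and Eno3, which mark nonclassical monocytes. It also had at most 1 UMI of Siglech, at most 1 UMI of Cd209a and Flt3, at most 2 UMIs of the B cell genes Cd79a, Cd79b, and Ms4a1, and under 1% of its UMIs from S100a8 and S100a9, which neutrophils express.

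Classical monocytes form in the bone marrow, leave it through the chemokine receptor CCR2, and circulate briefly before they enter inflamed tissue. There they secrete cytokines and chemokines, take up debris, and can mature into macrophages, while nonclassical monocytes patrol the vessel wall and depend on the nuclear receptor NR4A1. In the injured heart, monocytes recruited through CCL2 and related CCR2 ligands are the main source of new macrophages.

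The experiment asked which immune cells of the heart respond to isoproterenol (ISO), a β-adrenergic agonist given as a model of Takotsubo-like cardiomyopathy. Female WT C57BL/6J mice aged 8 to 16 weeks received ISO i.p. at 200 mg/kg (ISO group) or the vehicle PBS (control group), and CD45+ live cells were sorted from the digested hearts 24 hours later; the sample descriptions state the ISO dose for both libraries, and the control is identified by its title. The cells of 3 hearts were pooled per group, 15000 cells were loaded, and 1 scRNA-Seq library was made per group on the 10x Genomics Chromium platform. With 1 library per group no test was possible, mice cannot be told apart within a pool, and group cannot be told apart from library, so intervals are 95% exact intervals that cover counting error only.

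The libraries held 47382455 UMIs in 5927 barcodes (control) and 58495112 UMIs in 5514 barcodes (ISO), and 5641 and 5437 barcodes were kept. Control monocytes had a median of 9042 UMIs and 2767 genes, and ISO monocytes had 7643.5 UMIs and 2378 genes. Their median mitochondrial share was 2.33% and 2.04%. The monocytes therefore differed little in depth between libraries, although over all kept cells the ISO library was deeper, with a median of 8537 UMIs against 4790. Summed over members, 372697 control UMIs and 8165289 ISO UMIs were available, so that control levels carry most of the counting error. The libraries shared 15 cell barcodes, among them no barcode that was a member in both and 2 ISO members. No barcode outside the limits on genes and mitochondrial UMIs, of 286 in the control and 77 in the ISO library, met the marker limits.

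The label was checked against genes that the rule did not use, with levels as CPM, the UMIs of a gene per 1000000 UMIs of the summed cells. Chi3l3 (now named Chil3), a chitinase-like secreted protein of myeloid cells, was at 923 CPM in the control group and 6564 CPM in the ISO group. Hp, which encodes the hemoglobin scavenger haptoglobin, was at 566 and 864 CPM, and Vcan, which encodes the matrix proteoglycan versican, at 153 and 571 CPM. Both libraries thus held these markers, as well as Ccr2 at 1154 and 899 CPM and the coagulation factor gene F13a1 at 668 and 643 CPM. Of the 43 control cells, however, only 16 had a UMI of Chi3l3 and 17 of Vcan, beside 34 of Hp. The genes that chose the cells are given as a description: Ly6c2, a GPI-anchored surface protein, was at 961 and 588 CPM, Plac8, a small cysteine-rich protein, at 3512 and 1789 CPM, and the lysozyme gene Lyz2 at 32450.0 and 23817 CPM. Members of the ISO group thus had lower CPM of Ly6c2, Plac8, and Lyz2 than control members. Reads of Ly6c2 and Ly6c1, which are close in sequence, are hard to assign, and Ly6c1 was counted at 0 and 6.37 CPM.

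At the borders of the rule, 64 ISO members and 2 control members had exactly 5 UMIs of Ly6c2 and Plac8, and 87 and 2 barcodes that met every other limit had 4. The limit on complement genes alone removed 331 ISO and 55 control barcodes, with 22 ISO members at 3 UMIs and 16 such barcodes at 4. A further 651 ISO and 21 control barcodes missed only the limit on Ly6c2 and Plac8, and the ISO ones had 7398 CPM of Spp1 and 2918 CPM of Chi3l3. ISO members had 2372 CPM of Spp1 and 6564 CPM of Chi3l3. In the ISO library many barcodes thus lie on either side of the limit on Ly6c2 and Plac8. Whether they form a continuous group with the members was not tested. Lyz2 alone removed 92 ISO and 205 control barcodes, nonclassical markers 51 and 46, Cd209a and Flt3 88 and 21, S100a8 and S100a9 52 and 2, B cell genes 16 and 6, and Siglech 2 and 0. No doublet caller was run, and the limits on genes of other lineages stand in its place.

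Classical monocytes made up 0.762% of kept cells in the control group (43 of 5641, 95% interval 0.552% to 1.03%) and 18.2% in the ISO group (992 of 5437, 17.2% to 19.3%). This is a 23.9-fold higher share, or 4.58 on the log2 scale (4.14 to 5.06). The ratio moved with the denominator: among kept cells with at most 2 UMIs of the B cell genes, a limit that removes more barcodes than the B cell class used below, the share was 1.26% and 19.0%, a log2 ratio of 3.91. Among cells with at least 10 Lyz2 UMIs, mostly myeloid cells, it was 1.87% and 21.6%, a log2 ratio of 3.53. The direction was the same with each denominator, and the lowest of these ratios is still 11.5-fold. Nonclassical monocytes, chosen by a like rule, were at 1.28% and 1.56% of kept cells, a log2 ratio of 0.29 (-0.18 to 0.77) that turned to -0.76 (-1.23 to -0.29) among cells with at least 10 Lyz2 UMIs. The balance by these rules was 0.597 classical cells per nonclassical cell in the control group (43 to 72) and 11.7 in the ISO group (992 to 85). The nonclassical class differed between the libraries. Its median depth was 5188 UMIs in the control and 11029 in the ISO group, with Fn1 at 184 and 1951 CPM and Vcan at 17.6 and 375 CPM. Whether it holds the same kind of cell in both was not tested. Macrophages with Ccr2 UMIs were at 8.17% and 13.7% of kept cells, but their log2 ratio turned from 0.75 to -0.24 among cells with at least 10 Lyz2 UMIs. Shares of sorted cells do not give numbers of cells per heart.

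Genes were compared between the groups on UMIs summed over members, for 3000 genes with a mean of at least 50 CPM over both libraries. A ratio of at least 2-fold was called higher or lower, without a test. Of the 3000 genes, 565 (18.8%) were past 2-fold, 232 (7.73%) higher and 333 (11.1%) lower in ISO monocytes, and the median log2 ratio was -0.08. None of these genes had a counting interval of the log2 ratio that reached 0, but for 120 of the higher and 210 of the lower genes it reached 2-fold. A gene low in the control library could be tested only if it was high in the ISO library, and the reverse, which widens the ratios of tested genes and of list medians. The division into higher and lower depends on the scaling: without mitochondrial genes, ribosomal protein genes, and Gm26924 in the totals the median log2 ratio shifted by -0.12, and 225 genes were higher and 512 lower of 3535. Higher genes made up 41.1% of the called genes as reported and 30.5% with that scaling, which also changed the genes tested. With the median set to 0 on the same 3000 genes, 263 were higher and 281 lower (48.3% higher). Thinning each cell to 2000 UMIs before summing shifted the median by -0.13, with 268 genes higher and 514 lower, and subtracting the mean profile of B cells as free RNA shifted it by -0.13 as well. Gene groups are therefore read against the median of all genes, and 36 lists of genes (25 of pathways and programs, 11 of other cell types) are described by their counts and medians.

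Cytokines and chemokines had the most called genes in proportion among the 25 lists of pathways and programs: 17 of 24 tested genes were higher and 1 was lower, with a median log2 ratio of 1.55. Together they took 14376 CPM in control monocytes and 48840 CPM in ISO monocytes. Il1b, which encodes the inflammasome-processed cytokine IL-1β, was at 4398 CPM in the control group and 13764 CPM in the ISO group, a log2 ratio of 1.65 (1.58 to 1.72). Control monocytes thus already carried Il1b, and the ISO group had about 3.13-fold more. Il1a, its relative released by damaged cells, was at 24.1 and 439.5 CPM (4.11, 3.26 to 5.32), and Il1rn, the receptor antagonist, at 110.0 and 467 CPM (2.07). Agonists and the antagonist of the IL-1 receptor were thus higher together. Tnf was at 832 and 1289 CPM and Il6 at 204 and 169 CPM, neither past 2-fold. Osm, a cytokine of the IL-6 family, was at 174 and 483 CPM.

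The chemokines fall into neutrophil attractants and monocyte attractants, and both kinds were higher. Cxcl2, a ligand of the neutrophil receptor CXCR2, was at 1894 CPM in the control group and 14346 CPM in the ISO group (2.92, 2.81 to 3.03). Cxcl1 was at 69.8 and 656 CPM (3.20), and Cxcl3 at 0 and 263 CPM. With a floor of 3 counts (8.05 CPM in the control members), Cxcl3 was at least 32.7-fold higher in the ISO group. Among the CCR2 ligands, Ccl2 was at 169 and 3946 CPM (4.53, 4.19 to 4.93), with 51 of its 63 control UMIs (81.0%) in 1 cell. Without that cell, control Ccl2 was at 33.2 CPM and the log2 ratio was 6.83 (6.09 to 7.85), and over the alternatives the ratio ranged from 3.94 to 6.83. Ccl7 was at 5.37 and 641 CPM (6.58, 5.05 to 9.95) and Ccl12 at 5.37 and 168 CPM (4.65, 3.11 to 8.01), each on 2 control UMIs. Ccl7 and Ccl12 were thus nearly absent from control monocytes, Ccl2 was low, and all were higher in ISO monocytes, which express Ccr2 themselves. Higher Ccl2 and Ccl7 were not particular to classical monocytes. In nonclassical monocytes Ccl2 was at 9.79 and 3071 CPM and Ccl7 at 7.83 and 597 CPM. In macrophages with Ccr2 UMIs Ccl2 was at 607 and 3437 CPM and Ccl7 at 207 and 813 CPM. Ccl3 and Ccl4, chemokines for monocytes and T cells, were close to 2-fold, at 727 and 1460.1 CPM and at 2506 and 5038 CPM, and the log2 ratio of Ccl4 ranged over the alternatives from 0.24 to 1.08. Reads of Cxcl1, Cxcl2, and Cxcl3, and of Ccl2, Ccl7, and Ccl12, may be partly shared between paralogs, which was not measured. The division among these genes is therefore less certain than their sums.

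Other secreted factors of this list with roles in growth and repair were also higher: Areg, an EGF receptor ligand, at 48.3 and 272 CPM, Inhba, a subunit of activins, at 5.37 and 105 CPM, and Ccl24, a chemokine for eosinophils, at 2.68 and 119 CPM. Inhba had 2 control UMIs and Ccl24 had 1. These, with Il1a, Areg, Cxcl3, Ccl7, and Ccl12, reached the limit for testing only through their ISO level, which raises the count and the median of the list. The exception was Vegfa, the endothelial growth factor, which was lower, at 204 CPM in the control group and 101 CPM in the ISO group (-1.03, -1.36 to -0.66). Over the alternatives its log2 ratio ranged from -1.73 to -0.47, so that its place past 2-fold depends on the cells and the scaling. Vegfa also belongs to the hypoxia and repair lists, where it moved against most members. Il10, an inhibitory cytokine, was at 0 and 56.3 CPM but below the limit for testing.

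**Figure D1:**
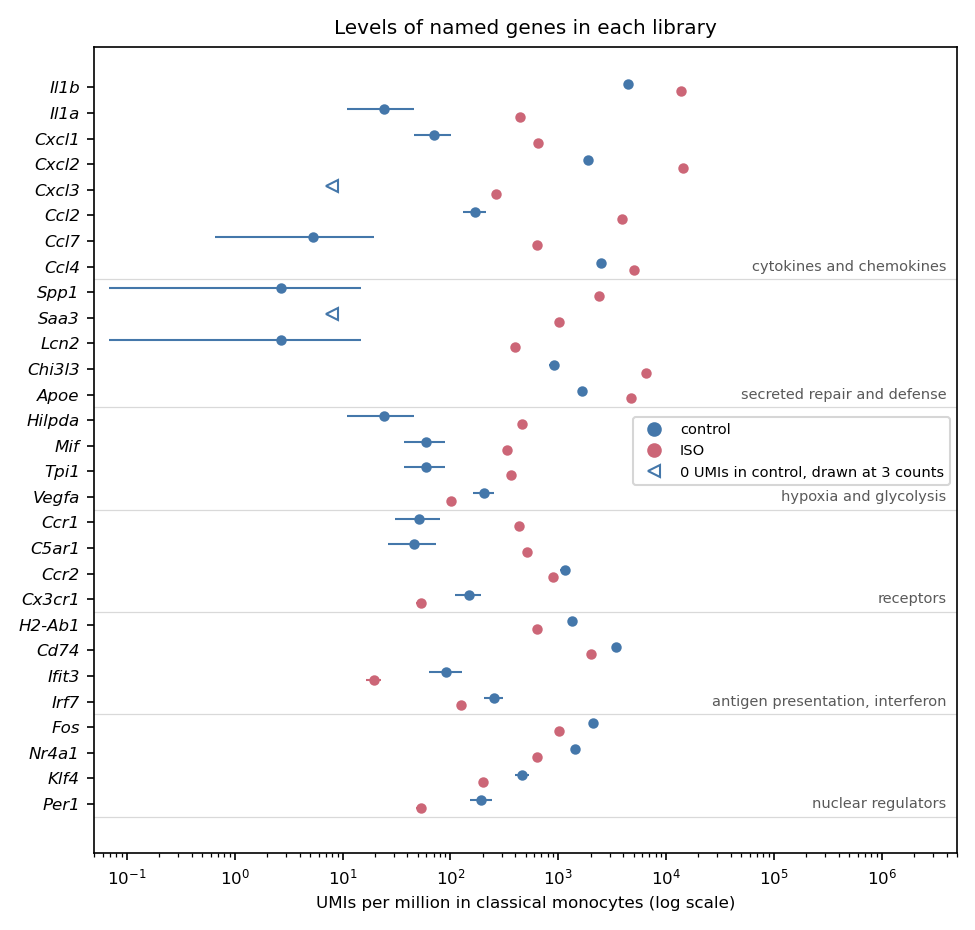
Levels of named genes in classical monocytes as CPM on a log scale, with control in blue (43 cells) and ISO in red (992 cells), and bars for the 95% Poisson intervals of the summed counts; open triangles mark genes with 0 control UMIs, drawn at the floor of 3 counts (8.05 CPM). Cytokines and secreted proteins sit to the right in the ISO group (Spp1 at 2.68 and 2372 CPM), while Vegfa, Cx3cr1, antigen presentation genes, and nuclear regulators sit to the left.

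NF-κB is known to induce several cytokine genes, but its response genes as a list were not shifted: 4 of 22 tested genes were higher and 2 lower, with a median log2 ratio of 0.06, which lies from -0.07 to 0.48 over the alternatives and so changes sign with the scaling and the cells. The 4 higher genes were the inhibitor gene Nfkbia (3531 and 7294 CPM, 1.05), the early response gene Ier3 (451 and 3069 CPM, 2.76), the survival gene Bcl2a1b (2.16), and the C-type lectin gene Clec4e (1.09). Nfkbia lies near the limit, from 0.86 to 1.18 over the alternatives. Cd40, a costimulatory receptor, was at 80.5 and 26.6 CPM, and Birc3, an inhibitor of apoptosis, at 325 and 129.9 CPM, both lower. The genes of the factor itself hardly differed, with Nfkb1 at 279 and 260.4 CPM and Rel at 298 and 295 CPM. Genes of this list thus went both ways, and whether the higher cytokines depend on NF-κB was not tested.

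Promoter letters were compared for groups that moved together, in RefSeq promoters of GRCm38.p6 from 250 bases before to 50 bases after the gene start, on both strands. The letters GGGANTTTC, 9 bases of the NF-κB binding sequence, occur in 1.11% of 32851 promoters. They occur in 3 of the 11 higher cytokine genes that matched the table (of 17), namely Cxcl1, Cxcl2, and Cxcl3, and also in Nfkbia. The overlapping form GGAANTTCC occurs in 0.928% of promoters and in 4 of the 11 genes, the same 3 and Ccl12. The windows below are shown because the Cxcl genes are neighbours that were higher together and share the letters, as does Nfkbia, the inhibitor gene of the same pathway. They lie at chr5:90891134-90891222, chr5:90903762-90903850, and chr5:90785988-90786076 on the plus strand and at chr12:55492648-55492715 on the minus strand (Nfkbia), and are printed 5′ to 3′ on the strand of the gene with the match in capitals.
Cxcl1: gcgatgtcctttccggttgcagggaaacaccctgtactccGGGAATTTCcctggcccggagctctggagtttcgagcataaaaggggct
Cxcl2: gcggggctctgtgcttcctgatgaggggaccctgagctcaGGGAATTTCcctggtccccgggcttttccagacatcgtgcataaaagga
Cxcl3: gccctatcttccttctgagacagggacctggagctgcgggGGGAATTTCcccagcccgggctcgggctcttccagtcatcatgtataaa
Nfkbia: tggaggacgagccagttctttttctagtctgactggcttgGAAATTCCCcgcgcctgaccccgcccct
The capitals are the same letters in Cxcl1, Cxcl2, and Cxcl3, and their reverse complement in Nfkbia. The letters TGANTCA, an AP-1 form, occur in 7.81% of promoters and in 3 of the 11 genes, and TGACGTCA, the cAMP response element, in 1.79% and in 1 of the 11 (Areg). TGANTCA also occurs in 5 of 18 promoters of interferon-stimulated genes with ratios below 0, so it is not particular to the higher cytokines. The genes were chosen after their ratios were seen, and a match is a description of the letters.

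Receptors and adhesion molecules did not move as a group, with 3 of 21 tested genes higher, 6 lower, and a median of 0.20. Among the higher ones were receptors for chemoattractants: Ccr1 at 51.0 and 429 CPM (3.04) and C5ar1, the receptor for complement fragment C5a, at 45.6 and 509 CPM (3.44). Ccr2 itself was at 1154 and 899 CPM (-0.36, -0.50 to -0.22), within 2-fold. Among the lower ones were receptors for vessel wall and chemokines: Itga4, an integrin subunit that binds endothelial VCAM-1, was at 247 and 88.5 CPM (-1.49), Cx3cr1, the fractalkine receptor, at 148 and 53.0 CPM (-1.49), and Cxcr4, which retains cells in the marrow, at 411 and 204 CPM (-1.01). The call of Cx3cr1 ends under some alternatives (up to -0.92). Other lower genes were Itgal (-1.07) and Cd177 (-1.07). Receptors for chemokines thus went both ways, with Ccr1 higher and Cx3cr1 and Cxcr4 lower.

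Pattern recognition receptors had 6 of 16 tested genes higher and none lower, with a median of 0.45. These were Clec4e (851 and 1814 CPM) and its partner Clec4d (158 and 556 CPM), which sense dead cells and microbial glycolipids, the related lectin Clec4n, the amplifying receptors Trem1 and Trem3, and Pycard, the inflammasome adaptor (179.8 and 545 CPM, 1.59). Nlrp3, the sensor of that inflammasome, was at 333 and 531 CPM, and Cd14, the co-receptor for lipopolysaccharide, at 2375 and 4576 CPM, both under 2-fold. Casp1, the protease that cuts pro-IL-1β, was at 80.5 and 62.9 CPM. RNA of the substrate and the adaptor was thus higher in ISO monocytes, and RNA of the protease was not.

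Among the genes with the largest ratios were secreted proteins of defense and repair, along with the chemokines Cxcl3 and Ccl7 named above. Saa3, an acute phase apolipoprotein, was at 0 in the control group and 1020.2 CPM in the ISO group, at least 127-fold higher. Spp1, which encodes the matrix cytokine osteopontin, was at 2.68 and 2372 CPM (9.20, 7.31 to 15.09), and Lcn2, which encodes the iron-siderophore carrier lipocalin 2, at 2.68 and 398 CPM (6.63, 4.73 to 12.52), each on 1 control UMI. Control monocytes of this library were thus essentially without these transcripts. Granule and acute phase proteins as a list had 4 of 9 tested genes higher and none lower (median 0.87), including the protease inhibitor Slpi at 311 and 1073 CPM and the collagenase Mmp8 at 69.8 and 152 CPM. Saa3, Spp1, and Lcn2 reached the limit for testing only through their ISO level, and such genes raise the counts and medians of their lists. Primary granule genes of neutrophil precursors were at or near 0 in ISO monocytes, with Mpo at 0.857 CPM and Elane at 0.122 CPM. Neutrophil markers, however, summed to 185 and 1023 CPM, with 4 of 5 tested genes higher. The part of neutrophil RNA in the ratios of granule genes was not tested. S100a8, which the rule limits, was at 26.8 and 508 CPM with all 10 control UMIs in 1 cell.

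The repair and alternative activation list had 10 of 19 tested genes higher and 1 lower (Vegfa), with a median of 1.77. Over the alternatives this median lay between 0.91 and 1.92. Besides Spp1, Chi3l3 was at 923 and 6564 CPM (2.83, 2.68 to 2.99), the matrix protein Tgfbi at 676 and 2304 CPM, the galectin Lgals1 at 217 and 828 CPM, and the tetraspanin Cd9 at 26.8 and 263 CPM, and Ecm1, Trem1, Inhba, and Il1r2 were higher as well. Timp1, an inhibitor of matrix proteases, was at 0 and 139 CPM. Spp1, Cd9, Inhba, Il1r2, and Timp1 reached the limit for testing only through their ISO level, which raises the count and the median. Other genes of the matrix and clotting were close to their control level: Fn1, fibronectin, was at 1352 and 1603 CPM, Thbs1, thrombospondin 1, at 2350.4 and 2681 CPM, and F13a1 at 668 and 643 CPM. Retnla and Nos2, genes of opposite macrophage programs, were near the limit of counting, with Retnla at 5.37 and 0.735 CPM and Nos2 at 0 in the control group. ISO monocytes were thus higher for part of the repair program and not for its textbook end points.

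Genes of maturing macrophages that the rule did not use were also higher, 6 of 12 tested and none lower, with a median of 1.21. Apoe, the lipid carrier of macrophages, was at 1664 and 4778 CPM (1.52, 1.41 to 1.64), and the lysosomal proteases Ctsl and Lgmn were at 139.5 and 909.6 CPM and at 137 and 397 CPM. The lysosomal membrane gene Cd63 was at 10.7 and 91.9 CPM, with most control UMIs in 1 cell, Trem2, a lipid receptor, at 48.3 and 142 CPM, and the complement receptor C3ar1 at 8.05 and 129.7 CPM. Cd63, C3ar1, and Trem2 reached the limit for testing only through their ISO level, which raises the count and the median. Csf1r, the receptor for the macrophage growth factor, went the other way within 2-fold, at 478 and 332 CPM. Genes of resident macrophages were not among them: Timd4 was at 0 and 0.612 CPM, Lyve1 at 2.68 and 0.245 CPM, and Folr2 at 10.7 and 0.735 CPM, and the whole list of 9 summed to 738 and 748 CPM, nearly all from F13a1, which classical monocytes express. In the same ISO library Apoe had UMIs in 79.5% of thinned B cells but in 12.5% of thinned T and NK cells. These shares differ too much to give 1 level of free RNA, and the amount of free RNA in the level of Apoe was not tested.

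The classical monocyte list was mixed, with 6 of 28 tested genes higher, 3 lower, and a median of 0.20. Higher were Chi3l3, Vcan, Tgfbi, Clec4e, and the calcium-binding genes S100a10 (741 and 2032 CPM) and S100a11 (512 and 1456 CPM), and among the lower were Cd177 and the glutathione transferase Mgst1 (440.0 and 173 CPM, -1.35). The nonclassical list was lower, with 6 of 10 tested genes lower, 1 higher (Bcl2a1b), and a median of -1.05. Nr4a1, needed for the survival of nonclassical monocytes, was at 1435 and 638 CPM (-1.17), Cd300a, an inhibitory receptor, at 397 and 175 CPM (-1.19), and Pou2f2, a transcription factor, at 77.8 and 23.1 CPM (-1.77). Transcripts shared with nonclassical monocytes were thus lower in ISO cells, while those typical of classical monocytes went both ways.

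Genes of glucose use were higher as a group. Of 12 tested glycolysis genes, 8 were higher and none lower, with a median of 1.41, and their sum went from 2141 to 5121 CPM. Slc2a1, the glucose transporter GLUT1, was at 64.4 and 176 CPM, the triose phosphate isomerase gene Tpi1 at 59.0 and 367 CPM (2.60), the pyruvate kinase gene Pkm at 537 and 1543 CPM (1.52), and Ldha, which turns pyruvate into lactate, at 247 and 774 CPM (1.64). RNA of genes for transport, lower steps of the pathway, and lactate production was thus higher, while Hk2, a hexokinase that starts the pathway, was at 80.5 and 101 CPM. Hif1a, the oxygen-regulated factor that induces this pathway, was at 105 and 301 CPM. The hypoxia list had 4 of 9 tested genes higher and 1 lower (Vegfa), with a median of 0.99: Hilpda, an inhibitor of lipolysis, at 24.1 and 462 CPM (4.18, 3.33 to 5.39), Mif at 59.0 and 337 CPM (2.48), P4ha1, a collagen prolyl hydroxylase, at 26.8 and 103 CPM, and Hif1a. Hilpda and P4ha1 reached the limit for testing only through their ISO level, which raises the count and the median of the list. When the profile of B cells was subtracted as free RNA, the median of the hypoxia list turned to -0.12, a subtraction that also removes what B cells themselves express. The core letters of the hypoxia response element, ACGTG, occur in 14 of the 19 promoters of glycolysis and hypoxia genes with ratios above 0 and in 19.6% of all promoters.

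Mitochondrial genes did not follow. The respiratory chain genes of the nucleus had 1 of 67 tested genes higher and 1 lower, with a median of 0.23, and the 7 tested genes of the mitochondrial genome had a median of -0.18 with none past 2-fold. The respiratory chain median lay between -0.14 and 0.31 over the alternatives, below 0 only when the B cell profile was subtracted. Glycolysis thus stands apart from respiration, whose genes stayed within 2-fold almost throughout. Cytosolic ribosomal proteins had 1 of 79 tested genes higher, none lower, and a median of -0.23, with 158069 and 134409 CPM in sum.

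Lists of protein turnover and folding had medians above 0, with a minority of genes past 2-fold. The proteasome list had 7 of 34 tested genes higher and none lower, with a median of 0.71 and 30 genes above 0. The called share was close to the 18.8% past 2-fold in either direction over all genes. All called genes of this list were higher, however, and 7.73% of all genes were higher. Examples are the regulatory particle genes Psmc2 (34.9 and 126 CPM), Psmd1 (26.8 and 83.3 CPM), and Psmd7 (45.6 and 127 CPM). These examples reached the limit for testing only through their ISO level, which raises the count and the median. The immunoproteasome genes Psmb8 and Psmb9, which interferon induces, were instead at 526 and 445 CPM and at 148 and 96.8 CPM. Chaperones had 4 of 26 tested genes higher and 1 lower, with a median of 0.58, so that the called share was close to the 18.8% over all genes. The higher ones were Hspa5 (631 and 1397 CPM, 1.14), a chaperone of the endoplasmic reticulum, Pdia6 (182 and 569 CPM, 1.63), Pdia3 (1.31), and Calr (469.6 and 1011 CPM). The lower gene was the heat shock gene Hspa1b, at 521 and 178 CPM, but 1 control cell held 61.9% of its UMIs, and without it the log2 ratio was -0.20. Antioxidant and iron genes had 2 of 15 tested genes higher, 1 lower, and a median of 0.68. Their called share was also close to the 18.8% over all genes. The metallothionein Mt1 was at 53.7 and 358 CPM and the metal transporter Slc11a1 at 129 and 277 CPM (1.09). The superoxide dismutase Sod1 was at 131 and 56.9 CPM (-1.22), and the ferritin heavy chain Fth1 at 4698 and 9148 CPM, just under 2-fold.

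**Figure D2:**
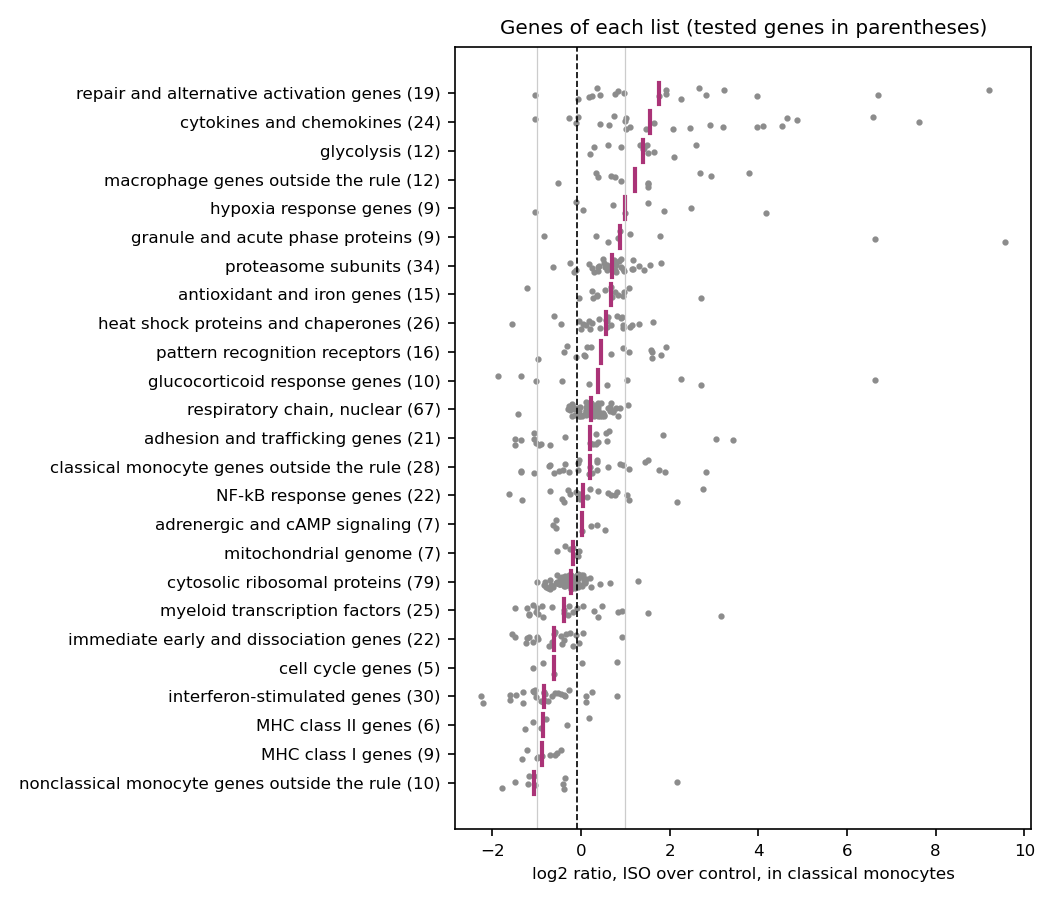
Each gray point is the log2 ratio (ISO over control) of a tested gene in classical monocytes, grouped by list on the vertical axis, with the purple bar at the median of the list, the dashed line at the median of all 3000 tested genes (-0.08), and gray lines at 2-fold. Repair (1.77), cytokine (1.55), and glycolysis (1.41) lists have the highest medians, and MHC class I (-0.88) and nonclassical monocyte genes (-1.05) the lowest.

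Interferon-stimulated genes were lower in ISO monocytes: 11 of 30 tested genes were lower and none higher, with a median of -0.84, and the sum of the list went from 10759 to 6869 CPM. Ifit3, an antiviral effector, was at 91.2 CPM in the control group and 19.5 CPM in the ISO group (-2.24, -2.77 to -1.65). Stat2, which carries the interferon signal to the nucleus, was at 91.2 and 30.6 CPM (-1.59). The master regulator Irf7 was at 252 and 124 CPM (-1.03), and its log2 ratio lay from -1.36 to -0.75 over the alternatives. Signal carrier, regulator, and effector were thus lower together in the sums over members. Irf7 varied among ISO members, however. It was at 43.0 CPM in the 248 ISO cells with the least Ly6c2 and Plac8 CPM. In the 248 with the most it was at 278 CPM, which is not below its control level. Exceptions above 0 were Slfn2 (936 and 1639 CPM, 0.81), Ifih1 (0.24), Rsad2 (0.12), and Oasl1 (0.12), none past 2-fold. The list median lay between -1.48 and -0.70 over the alternatives.

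The letters GAAANNGAA, the core of the interferon-stimulated response element, occur in 8.56% of all promoters and in 12 of the 18 interferon-stimulated genes below 0 that matched the table (of 26). They occur in 1 of the 11 higher cytokine promoters (Ccl3) and none of the 19 glycolysis and hypoxia promoters. Windows of 3 of these genes, chosen after their values were seen, are shown because they hold an effector, a signal carrier, and a secreted modifier of the group that was lower. They lie at chr19:34583387-34583475 and chr10:128270248-128270325 on the plus strand and at chr4:156200836-156200924 on the minus strand (Isg15), with the matches on either strand in capitals.
Ifit3: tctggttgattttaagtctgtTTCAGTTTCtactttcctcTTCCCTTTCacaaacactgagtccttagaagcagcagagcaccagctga
Stat2: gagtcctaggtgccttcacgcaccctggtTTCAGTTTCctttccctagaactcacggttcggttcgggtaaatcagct
Isg15: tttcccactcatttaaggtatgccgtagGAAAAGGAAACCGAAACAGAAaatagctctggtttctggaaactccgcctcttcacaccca
Isg15 holds 3 overlapping matches and Stat2 holds 1 before the gene start, and Ifit3 holds 3, of which the window shows those nearest the start. Isg15, a ubiquitin-like modifier, was at 622 and 348 CPM (-0.84).

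Antigen presentation genes were mostly below 0, but few were past 2-fold. MHC class II genes had 2 of 6 tested genes lower and none higher, with a median of -0.85: H2-Aa was at 1256 and 526 CPM (-1.26), H2-Ab1 at 1339 and 635 CPM (-1.08), and the invariant chain gene Cd74 at 3467 and 2005 CPM (-0.79). Their control levels rest on few cells, since 1 control cell held 31.0% of the H2-Aa UMIs, and without it the log2 ratio was -0.78. Sums of B cell markers (244 and 33.9 CPM) and dendritic cell markers (85.9 and 52.3 CPM) were also lower, and the part of such cells in class II RNA was not tested. The ratio of H2-Ab1 reached -0.59 with at least 20 Lyz2 UMIs in members, and subtracting the profile of B cells, which express these genes strongly, left no UMIs to compare. MHC class I genes had 2 of 9 tested genes lower and none higher, with a median of -0.88; B2m, the shared light chain, was at 2648 and 1438 CPM (-0.88), and Tap1, the peptide transporter, at 185 and 74.5 CPM (-1.32). Most tested genes of both presentation pathways were thus below 0, and the class II median lay from -1.49 to -0.33 over the alternatives, while the class I median was at most -0.80.

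Immediate early and dissociation genes, which tissue digestion also induces, had 6 of 22 tested genes lower and none higher, with a median of -0.60. Fos was at 2125 and 1010.5 CPM (-1.07), Fosl2 at 770.1 and 273 CPM, Egr1 at 722 and 309 CPM (-1.23), and Klf4, a monocyte differentiation factor, at 464 and 201 CPM (-1.21); the others were Nr4a1 and Hspa1b. Alternatives end the 2-fold call of Fos (up to -0.84), Klf4 (-0.92), and Nr4a1 (-0.97). Hspa1b is the gene whose call rests on 1 control cell. Myeloid transcription factors had 2 of 25 tested genes higher and 6 lower, with a median of -0.39. The higher ones were Hif1a and Id2, an inhibitor of helix-loop-helix factors (37.6 and 349 CPM, 3.17), and the glucocorticoid receptor gene Nr3c1 was lower (134 and 63.6 CPM, -1.09). Spi1 (PU.1) and Cebpb, chosen as examples of factors within 2-fold, were at 676 and 563 CPM and at 3893 and 3177 CPM.

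Genes that respond to glucocorticoids, the other hormones of stress, did not move as a group, with 4 of 10 tested genes higher, 3 lower, and a median of 0.38. The decoy receptor gene Il1r2 was at 26.8 and 134 CPM (2.25), whereas Tsc22d3 (GILZ) was at 266 and 105 CPM (-1.35) and the clock gene Per1 at 193 and 53.2 CPM (-1.87). Fkbp5, a common target, was below the limit for testing at 5.37 and 55.4 CPM (3.05, 1.51 to 6.42), on 2 control UMIs. The list thus held genes that went each way. The sign of the median depends on the treatment of depth, at -0.0715 when cells were thinned before summing and -0.22 when the rule was applied to thinned cells. The adrenergic and cAMP list, which bears on the injected agonist, had none of 7 tested genes past 2-fold and a median of 0.03, from -0.31 to 1.31 over the alternatives. The receptor gene Adrb1 was at 0 and 0.367 CPM, and the cAMP-induced repressor gene Crem at 139.5 and 91.0 CPM. At 24 hours the RNA of this pathway thus showed no tested gene past 2-fold. Cell cycle genes had 5 tested genes, none higher and 1 lower (H2afz, -1.09), with a median of -0.61, and the proliferation marker Mki67 was at 10.7 and 21.4 CPM.

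Among the 15 genes with the lowest ratios, Hpgd, which encodes the enzyme that inactivates prostaglandins, came first, at 228 CPM in the control group and 17.5 CPM in the ISO group (-3.71, -4.10 to -3.30). Ptgs2, which makes them, was at 440.0 and 772 CPM, so that RNA for synthesis and breakdown of prostaglandins went in opposite directions, with only the second past 2-fold. Gpr141, an orphan receptor, was at 185 and 30.2 CPM (-2.62), the phosphatase gene Ptpro at 182 and 38.7 CPM (-2.25), and Glul, glutamine synthetase, at 166 and 46.7 CPM (-1.84). The others were the myelin protein gene Mbp (223 and 55.8 CPM), Per1, the phosphodiesterase gene Gpcpd1 (-1.81), the NAD kinase gene Nadk (-1.75), the kinase p38α gene Mapk14 (-1.74), the Rac regulator gene Arhgap15 (-1.73), and a group of genes whose reads are hard to place: Gm26924 (34639 and 8510.2 CPM, -2.03), which overlaps ribosomal RNA sequence, the mitochondrial tRNA synthetase gene Lars2 (-1.77), the pseudogenes Rpl3-ps1 (-1.93) and Gm11942 (-1.76), and the mitochondrial tRNA gene mt-Tq (-1.95). For these genes, cells and library chemistry cannot be told apart, and Gm26924 alone took 12910 of the 372697 control UMIs. Among the 15 genes with the highest ratios not yet named were Lrg1, a secreted glycoprotein of inflammation (2.68 and 254 CPM, 5.98, 4.08 to 11.87), Rgs1, a brake on chemokine receptor signaling (2.68 and 215 CPM, 5.74, 3.84 to 11.63), Dmkn, the secreted dermokine (8.05 and 380.4 CPM, 5.34, 4.01 to 7.84), Dab2, an endocytic adaptor (13.4 and 261 CPM, 4.14), Sdc4, a heparan sulfate proteoglycan (67.1 and 1067 CPM, 3.96), and AA467197 (16.1 and 217 CPM, 3.64). The control UMIs of AA467197 all came from 1 cell, so its ratio says little. Several of the most abundant genes stayed within 2-fold: Tmsb4x was at 15755 and 20474 CPM, Actb at 12568 and 17840.3 CPM, Malat1 at 6976 and 9281 CPM, Vim at 3308 and 5663 CPM, Tpt1 at 3542 and 3165 CPM, and S100a4 at 2646 and 3422 CPM, whereas Srgn, the granule proteoglycan serglycin, was past 2-fold at 1967 and 4204 CPM.

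Markers of other cell types are given as sums over their lists. B cell markers were at 244 and 33.9 CPM (10 genes, Ighm first at 91.2 and 12.1 CPM), T cell markers at 115 and 61.1 CPM (11 genes, Il7r first in the ISO group, Trac at 0 and 0.122 CPM), and endothelial markers at 53.7 and 18.7 CPM (7 genes, Flt1 first, Tie1 at 0 in both). Dendritic cell markers were at 85.9 and 52.3 CPM (11 genes, Clec10a first in the ISO group), cardiomyocyte markers at 45.6 and 18.6 CPM (9 genes, Myl2 first), and erythroid markers at 5.37 and 0.857 CPM (5 genes, Hbb-bs at 5.37 and 0 CPM). These sums were thus larger in control monocytes, some on few UMIs, and their source was not tested. NK cell markers were at 37.6 and 199 CPM (9 genes), of which Ccl5, which monocytes can express too, made 34.9 and 169 CPM, while Ncr1 was at 0 and 2.20 CPM. Neutrophil markers were at 185 and 1023 CPM (10 genes, 4 of 5 tested higher), led by S100a8, with Ly6g at 0 in both. Platelet markers were at 8.05 and 58.9 CPM (6 genes, Pf4 first, Gp9 at 0 in both), and fibroblast markers at 129 and 212 CPM (9 genes, Gsn at 126 and 208 CPM, Pdgfra, Lum, and Col1a2 at 0 in both). Il1r2 and Trem3, named above, belong to the neutrophil list too, and the part of other cells in their ratios was not tested.

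Within the ISO group the most variable genes included cytokines and secreted proteins that differed between groups, along with genes within 2-fold such as Lyz2, Cd74, and Fth1. Among 618 genes with at least 0.5 UMI per cell after thinning to 2000 UMIs, the variance over the mean was highest for Spp1 (40.2), Cxcl2 (29.8), Il1b (25.7), Ccl4 (23.9), Cd74 (23.2), Lyz2 (21.0), Ccl2 (19.8), Chi3l3 (16.5), Fth1 (13.9), and Apoe (13.3), beside a median of 1.20 over all ranked genes. These genes thus differ from cell to cell far more than a typical gene. Cd74 had a median of 0 UMIs and up to 112 per ISO cell, and 81.8% of ISO cells had no H2-Ab1 UMI, so a minority of members carries most class II RNA. For example, the cells with 112, 62, 59, and 56 Cd74 UMIs had 0 UMIs of Chi3l3 and Apoe, whereas the cell with 55 had 3 of each. Whether this minority is the same kind of cell as the other members was not tested. Among 588 genes in control monocytes the order was Ccl4 (26.2), Hspa1b (21.6), Gm26924 (19.3), Ccl3, Cd74 (15.4), Actb, Lyz2, the ribosomal RNA gene mt-Rnr2, Hspa1a, and H2-Aa, and most Hspa1b UMIs came from the cell named above.

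Per cell, control monocytes had a median of 5 Il1b UMIs of 2000 (quartiles 2 and 13.5), and ISO monocytes had 21.5 (3 and 47). The share of cells with an Il1b UMI was 95.3% and 85.9% after thinning (95.3% and 93.4% without), beside 12.1% of B cells and 10.5% of T and NK cells in the control library and 46.2% of B cells and 42.2% of T and NK cells in the ISO library. The background of Il1b thus differed between the libraries, so these shares do not count expressing cells, and 140 of 992 ISO cells had no Il1b UMI after thinning. B cells had a median of 3644.5 and 3620 UMIs, and T and NK cells 4053.5 and 3982, in the control and ISO libraries before thinning. Cxcl2 had a median of 0 and 18 UMIs, with a UMI in 41.9% and 83.7% of cells (48.8% and 92.8% without thinning), beside 38.5% of B cells and 43.8% of T and NK cells in the ISO library. Ccl2 had a UMI in 2.33% and 66.3% (18.6% and 80.5%), beside 15.4% of B cells and 23.4% of T and NK cells. For these chemokines more cells had a UMI in the ISO group, above the lymphocytes of the same library.

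Chi3l3 had a UMI in 27.9% and 80.9% of thinned monocytes (37.2% and 84.8% without thinning), beside 10.3% of B cells and 7.81% of T and NK cells in the ISO library. Saa3 had no UMI in 43 control cells, for which 3 of 43 (6.98%) is taken as the limit of counting, and a UMI in 40.3% of ISO monocytes (51.5% without thinning), beside 0 of 39 B cells, with 3 of 39 (7.69%) as the limit, and 1.56% of T and NK cells. Saa3 UMIs were thus seen in more ISO monocytes than lymphocytes, and the cells without one may express it below this depth. Spp1 had a UMI in 42.4% of ISO monocytes (64.0% without thinning), 0 of 43 and 2.33% in the control group, and up to 179 UMIs of 2000 in a cell. Its background was high, at 17.9% of B cells and 31.2% of T and NK cells (30.8% and 46.9% without thinning), so the cells with few Spp1 UMIs cannot be told apart from free RNA. Ccr2, by contrast, had a UMI in 76.7% and 78.0% of thinned monocytes (95.3% and 96.5% without), beside 12.8% of B cells and 42.2% of T and NK cells, and T cells express this receptor themselves.

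**Figure D3:**
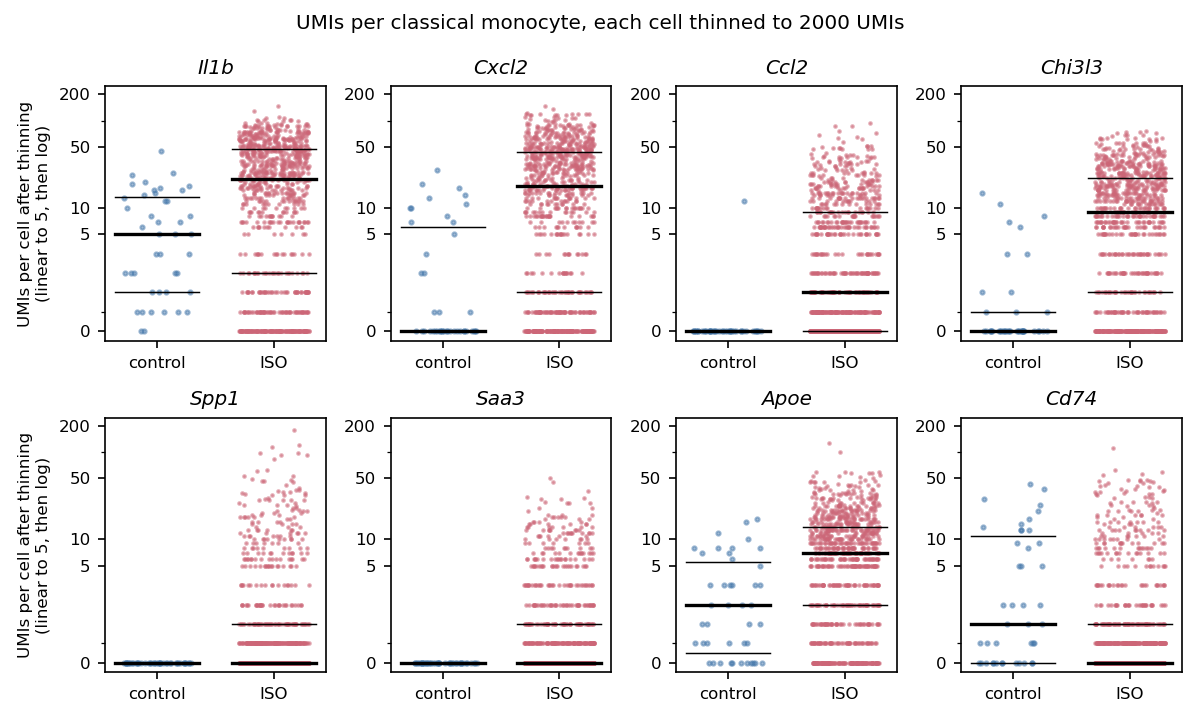
UMIs of 8 genes in each classical monocyte after thinning to 2000 UMIs (vertical axis linear to 5, then logarithmic), with 43 control cells in blue and 992 ISO cells in red, a thick line at the median, and thin lines at the quartiles. Il1b shifts from a median of 5 to 21.5 and Cxcl2 from 0 to 18, while Spp1 and Saa3 have a median of 0 in both groups and a long upper tail in the ISO group.

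Across the 992 ISO cells, which share library and free RNA, rank correlations of thinned counts are given as a description. They were 0.64 for H2-Ab1 and Cd74, 0.59 for Ccl2 and Ccl7, 0.51 for Il1b and Cxcl2, 0.38 for Ccl2 and Spp1, and 0.26 for Ly6c2 and Chi3l3, but 0.11 for Ly6c2 and Plac8 and -0.10 for Ly6c2 and Spp1. Il1b with Chi3l3 was at 0.03 and Spp1 with Saa3 at -0.03. Interleukin and neutrophil chemokine RNA thus ran together across cells, and CCR2 ligand RNA ran together.

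To see how ISO monocytes vary with their classical markers, the 992 cells were ranked by CPM of Ly6c2 and Plac8 and divided into 4 groups of 248. The bounds were 279 to 1098, 1099 to 2068, 2074 to 3333, and 3349 to 16966 CPM, and the median depths 8435, 7546, 7470, and 7061 UMIs. Deeper cells have more UMIs in the divisor, so depth and rank are not independent. From the group with the least to the group with the most Ly6c2 and Plac8, Spp1 was at 4259.6, 2459.6, 1382, and 859 CPM. Ccl2 was at 5534, 4593, 3105, and 2063 CPM, and Ccl7 went from 1013 to 259 CPM. H2-Ab1 went from 1118 to 341 CPM and Hilpda from 634 to 278 CPM. The lowest group holds the cells nearest the limit of the rule, which uses both genes, so these levels describe the members and are no finding apart from the rule. Plac8 makes up most of that sum (519.6 to 3928 CPM, against 238 to 1193 CPM for Ly6c2), so the order cannot be credited to Ly6c2.

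Other genes ran the opposite way. Chi3l3 was at 4136, 5938, 7353, and 9571 CPM, and Saa3 at 487, 754, 1357, and 1647 CPM. Hp went from 386 to 1582 CPM, F13a1 from 442 to 871 CPM, and Mgst1 from 55.1 to 336 CPM. The order of these genes is again a description of members by values that chose them. Between the groups, Mgst1 was lower in ISO cells and Hp and F13a1 were within 2-fold. Apoe, a macrophage gene by its usual role, went from 3770.1 to 5552 CPM with the classical genes, while the lysosomal gene Cd63 went from 158 to 47.2 CPM. Il1b did not follow the rank, at 13713, 13138, 14766, and 13456 CPM, and Ccr2 went from 818 to 969 CPM. Among all genes of these groups the lowest log2 ratios of the highest over the lowest group were those of Ccl24 (-4.26), Spp1 (-2.31), the lipoprotein lipase gene Lpl (-2.27), and Lmna (-2.13), and the highest outside the ranking genes were those of Irf7 (2.69), Mgst1 (2.61), Mmp8 (2.32), and Lcn2 (2.15). Lpl and Lmna were chosen after their values were seen.

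**Figure D4:**
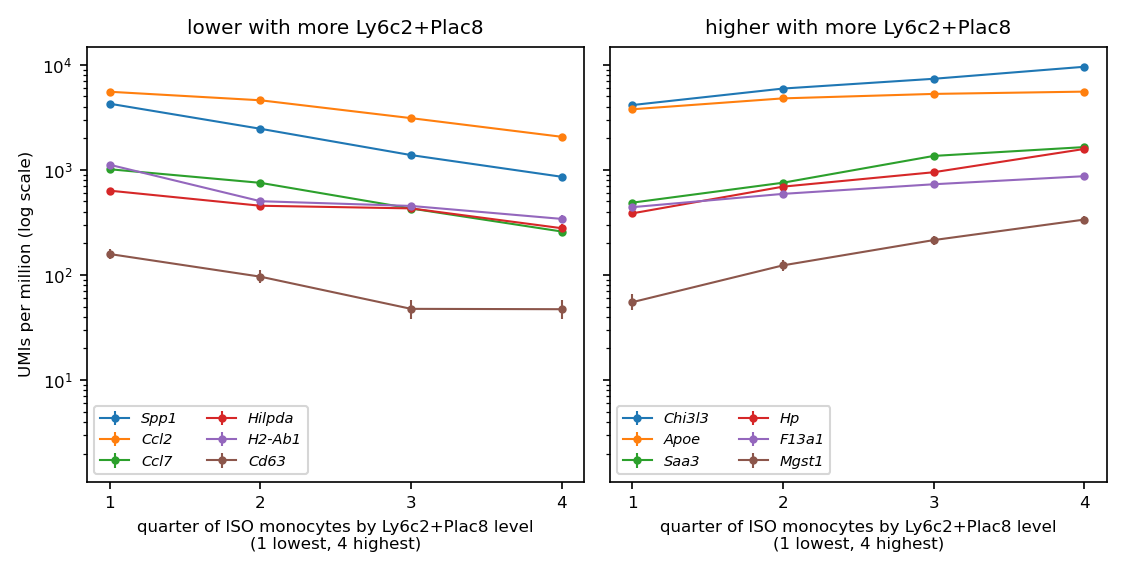
Levels (CPM, log scale) in 4 groups of 248 ISO monocytes ordered by their Ly6c2 and Plac8 CPM from lowest (1) to highest (4), with 95% Poisson intervals of the summed counts as bars. On the left, Spp1 goes from 4259.6 to 859 CPM; on the right, Chi3l3 goes from 4136 to 9571 CPM.

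Within the ISO library, classical monocytes were set beside the classes most like them, without a test. Against nonclassical monocytes (85 cells), they had more Saa3 (1020.2 CPM against 195 CPM, 2.38), Lcn2 (1.91), Dmkn (1.67), Mgst1 (1.66), Lrg1 (1.51), Ccl12 (1.30), Hp (1.17), F13a1 (643 CPM against 306 CPM), and the adenosine receptor gene Adora2b (194 CPM against 96.7 CPM). The interferon-inducible genes Ifi204 (1.34) and Pyhin1 (1.17) and the membrane gene Ms4a4c (0.97) were also higher. They had less of the fatty acid carrier Fabp4 (49.8 CPM against 356 CPM, -2.84), the lipase inhibitor G0s2 (-2.17), the G protein subunit Gngt2 (-1.61), the chemokine Pf4 (-1.38), Itgal (-1.31), the kinase Stk10 (-1.15), the receptor Cd300ld (-1.11), Spp1 (2372 CPM against 5767 CPM, -1.28), and MHC class II RNA, with H2-Ab1 at 635 CPM against 1760.4 CPM. Saa3 and other acute phase genes were thus higher in the classical than in the nonclassical class and Spp1 was not. The ISO nonclassical class itself carries classical genes such as Vcan. Neutrophils of the ISO library (at least 1% of UMIs from S100a8 and S100a9, at most 3 C1q UMIs) had more of some of these genes. Lcn2 was at 1543 CPM in them against 398 CPM in classical monocytes, Lrg1 at 316 against 254 CPM, and Hp at 959 against 864 CPM. Saa3 (515 CPM) and Dmkn (202 CPM) were lower in neutrophils than in classical monocytes. The control difference in H2-Ab1 was smaller, at 1339 CPM against 1584 CPM.

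Against macrophages with Ccr2 UMIs (746 cells), classical monocytes had more Mgst1 (2.45), Lcn2 (2.17), Ifitm6 (2.05), Hp (2.02), Saa3 (2.01), Lrg1 (1.95), Slpi (1.51), the complement gene C3 (1.38), and Chi3l3 (6564 CPM against 2025 CPM, 1.70). In the control library Chi3l3 was at 923 CPM against 40.9 CPM in the same order, so it was higher than in these macrophages in both. Nonclassical monocytes of the ISO library also had Chi3l3, at 3476 CPM, so it did not mark the classical class alone. Dmkn (1.58), the phosphodiesterase Smpdl3a (1.40), and 1810033B17Rik (1.42) were also higher. They had less Pf4 (55.6 CPM against 1045 CPM, -4.23), the tetraspanins Cd81 (-3.65) and Cd63 (-1.69), the mannose receptor Mrc1 (-2.82), selenoprotein P gene Sepp1 (-1.19), the chemokine Cxcl16 (-1.20), Rgs1 (-1.15), and G0s2 (-1.33), and Cd74 at 2005 CPM against 6017 CPM. The macrophages thus carry more MHC class II and Mrc1 RNA than these monocytes, and the limits on complement genes in both rules keep the classes apart by construction.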

How the data were processed

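CD45+ heart cells of 3 mice per group were profiled by 10x scRNA-Seq in 1 control and 1 ISO library. The authors demultiplexed reads with bcl2fastq 2.19.1.403, extracted barcodes and UMIs with UMI-tools 1.0.0, aligned to mm10 with STAR 2.7.3a, and counted with featureCounts 1.6.4; the deposited values are counts of UMIs per gene and barcode, without normalization. The analysis ran in Python 3.11.15 and used pandas 2.3.3, numpy 2.4.6, matplotlib 3.10.9, and scipy 1.17.1. A further limit of the rule and some genes of the lists are not reported here. The members and lists were chosen with earlier results of these data known. UMIs were summed over members, and the log2 ratio of ISO to control CPM, each with 0.5 UMI added, was taken for genes of at least 50 mean CPM. Intervals are exact (Poisson, Clopper-Pearson, binomial) at 95%; the code was tested on simulated data. Genes were named if they belong to the rule, its markers, or a list, were among the 15 with the largest ratio each way (at least 100 mean CPM), the 20 most abundant, the 10 most variable per library, or the 12 with the largest ratio each way against nonclassical monocytes or Ccr2 macrophages; others are said to be chosen after their values were seen. Nonclassical monocytes had at least 3 UMIs of Treml4, Ace, Cd300e, and Eno3, and Ccr2 macrophages at least 10 of the C1q genes and 1 of Ccr2.

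The 25 lists of pathways cover classical, nonclassical, and macrophage genes outside the rule, cytokines and chemokines, NF-κB response, immediate early and dissociation genes, glycolysis, hypoxia, respiratory chain, mitochondrial genome, ribosomal proteins, proteasome, interferon-stimulated genes, MHC class I and II, glucocorticoid response, adhesion, granule proteins, repair, pattern recognition, chaperones, adrenergic and cAMP signaling, cell cycle, transcription factors, and antioxidant genes; 11 lists hold markers of other cells. The symbols Adrb3, Icer, and Ighd were not found among the counted genes. Alternatives changed the cell filters, each limit of the rule, depth, denominators, scaling, weight of cells, free RNA, pseudocount, the minimum level, and the thinning depth. Alternatives without any C1q or S100a8 and S100a9 UMI, without the control cell richest in Ccl2, without Gm26924 in the totals, and with a narrower marker list for other lineages were chosen after seeing the data. Longer forms of the promoter motifs were also searched and are not reported here. Gene positions are from GENCODE M21 and promoters from RefSeq GRCm38.p6.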

Additional observations from a re-analysis of the deposited data

Results flagged for a closer look

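Vegfa had opposite ratios in neighbouring classes of the same libraries. In classical monocytes it was at 204 CPM in the control group and 101 CPM in the ISO group, a log2 ratio of -1.03. In nonclassical monocytes it was at 29.4 CPM in the control group and 137 CPM in the ISO group (2.18), and in macrophages with Ccr2 UMIs at 20.5 CPM in the control group and 96.1 CPM in the ISO group (2.22). Both differences from classical monocytes were not tested, since each group has 1 library. The classes differed mainly in the control library, where classical monocytes had the highest Vegfa CPM, and lay close together in the ISO library, where the nonclassical class was deeper and carried more classical genes than in the control library.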

How the results depend on the processing

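The share of classical monocytes was higher in the ISO group under all 19 alternatives run on it. Its log2 ratio of 4.58 moved beyond its counting interval to 4.10 with the limits applied to cells thinned to 2000 UMIs, 3.91 without cells of more than 2 B cell gene UMIs and 3.53 with only cells of at least 10 Lyz2 UMIs in the denominator, 3.28 with classical and nonclassical monocytes together, and 3.50 with members free of C1q, S100a8, and S100a9 UMIs (339 ISO and 31 control cells, chosen after seeing the data). The number of higher genes (232) changed most with the minimum level, to 420 at a mean of 20 CPM, 135 at 100 CPM, and 1194 at 1 UMI, and the number of lower genes (333) to 738, 155, and 6691, because more or fewer genes were tested (5410, 1545, and 16311). Lower genes also numbered 512 without mitochondrial, ribosomal protein, and Gm26924 UMIs in the totals and 514 with cells thinned before summing; the cause of the second was not tested.

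Of 1773 values for 71 named genes, 1537 lay within the reported counting interval, 234 moved, and 2 of genes past 2-fold changed sign, AA467197 to -8.06 and mt-Tq to 0.0942 when the B cell profile was subtracted. The first of these is set by the pseudocount, since no ISO UMI was left. Of genes within 2-fold, Malat1, S100a4, Fn1, and Tnf also crossed 0. That subtraction also removes what B cells express themselves and left 867 tested genes. Of 623 list medians, 577 stayed within their limits, 43 moved, and 3 of lists with medians away from 0 changed sign: hypoxia to -0.12 with the B cell profile subtracted, and the glucocorticoid list to -0.22 with limits on thinned cells and -0.0715 with thinning before summing, whose cause was not tested. The classical, NF-κB, respiratory chain, mitochondrial genome, adhesion, and adrenergic medians, which lie near 0, crossed it too. Genes with few control UMIs ranged widely, Spp1 from 7.90 to 10.68, Lcn2 from 3.90 to 7.62, and Ccl7 from 5.59 to 8.90. No paired analysis was possible because the hearts of a group were pooled. The 43 control cells limit every ratio, and intervals cover counting error only, not variation between mice, libraries, or sorts.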

Other observations

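At the level of gene positions, the raised chemokine genes lie in clusters. Cxcl3, Cxcl1, and Cxcl2 lie within chr5:90786103-90905938, and Ccl2, Ccl7, and Ccl12 within chr11:82035571-82103400 (GRCm38). Il1a and Il1b are neighbours on chromosome 2. Cxcl2 was at 5055 CPM in the control group and 14602 CPM in the ISO group in macrophages with Ccr2 UMIs, a log2 ratio of 1.53, so that control macrophages had more Cxcl2 than control monocytes. Apoe was at 8680.0 CPM in the control group and 5586 CPM in the ISO group in the same macrophages (-0.64), opposite in sign to the monocytes, and this difference was not tested either.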
